A study of Homo sapiens with 4 samples.

Results

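The genes described here are SOX4, SOX5, SOX9, POU3F2 and PRDM1, 5 genes that encode DNA-binding transcription factors, measured in SCP2 breast cancer cells on 4 arrays. They were chosen by symbol after their values on these arrays had been seen, selected on the differences with TGF-beta and between cells labelled DLC1 and vector cells, so those differences describe the genes and test nothing. Of 54675 probe sets on the array, 17 carry one of these symbols and no other. SCP2 was grown from a single cell of the human breast cancer line MDA-MB-231 and is known to form bone metastases in mice. The groups were cells labelled as overexpressing DLC1, with and without TGF-beta, and vector control cells, with and without TGF-beta, and each had 1 array. The sources used here do not give the dose or duration of TGF-beta, the promoter of the DLC1 construct, or whether the cells were a clone or a pool. In cultures measured in bulk, fewer cells with a transcript and less of it per cell cannot be told apart.

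SOX proteins bind DNA through an HMG box, a domain that bends the helix. SOX4, of the SoxC group, is known as a gene induced by TGF-beta during epithelial-mesenchymal transition and as a factor in tumour invasion. SOX9 and SOX5 act together in cartilage formation, and SOX9 also maintains progenitor cells in several epithelia, breast included. POU3F2, also called BRN2, is a POU-domain factor of neurons that is known in melanoma for an invasive cell state. PRDM1, also called BLIMP1, is a zinc-finger repressor that drives plasma cell formation.

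The values are intensities in arbitrary units, and probe sets differ in brightness, so levels are compared between arrays for the same probe set and never between genes. Each gene was represented by its brightest probe set, and one was kept if its highest value reached 0.38, the median of all values. All 5 genes were kept, as were 14 of the 17 probe sets. The other 3, 1567906_at of SOX4 and 238285_at and 1569638_at of SOX5, ran from 0.09 to 0.23. A difference of at least 2-fold, or 1 on the log2 scale, counted as a change. With 1 array in each group no spread between replicates exists, so no difference has an error or a test.

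Median intensities were 0.38 to 0.39 on the 4 arrays. The mesenchymal marker VIM read 160.3 to 205.1 and the keratin KRT18 56.8 to 65.1. The estrogen receptor gene ESR1 stayed at or below 0.46 and the cadherin genes CDH1 and CDH2 at or below 0.37. Of the 4 luminal markers measured, ESR1 among them, 3 stayed under 1. The other, GATA3, was above the filter on every array. It read 3.67 in untreated cells labelled DLC1 against 4.59 in untreated vector cells. Of the 5 epithelial markers above the filter only KRT7 passed 2-fold, and it read 8.39 and 4.10 in the arrays labelled DLC1 with and without TGF-beta, against 6.18 and 2.32 in the vector arrays. Markers of the cells in which these factors are best known were dim. The 4 chondrocyte markers read at most 0.44 and the 6 neural and melanocytic markers at most 0.71 on any array. Of the 5 B and plasma cell markers measured, 4 stayed under 1, and SDC1, which epithelial cells also express, read 4.90 and 4.04 in the arrays labelled DLC1 with and without TGF-beta, against 8.56 and 4.58 in the vector arrays. The log2 gap between 3′ and 5′ probe sets of ACTB, a sign of RNA quality, was 3.03 and 3.11 in the arrays labelled DLC1 with and without TGF-beta, against 2.83 and 3.26 in the vector arrays, and the part of these measures in the results was not tested. The DLC1 transcript does not settle the labels: its brightest probe set, 210762_s_at, read 3.64 and 3.38 in the arrays labelled DLC1 with and without TGF-beta, against 2.51 and 1.77 in the vector arrays, but 224822_at read 1.69 and 1.44 against 2.41 and 1.79, and 220512_at read 0.19 and 0.18 against 0.41 and 0.26. Sets 220511_s_at and 242631_x_at stayed at or below 0.14. The cells are therefore called by their label throughout.

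SOX4 and POU3F2 both lie on chromosome 6 and both rose with TGF-beta in vector cells, and in untreated cells labelled DLC1 SOX4 was higher and POU3F2 lower than in vector cells. The 250 bases before their transcription starts are shown for that contrast, from RefSeq on GRCh38.p14 and read 5′ to 3′. The capitals mark CCAAT, the box bound by NF-Y, and GGGCGG, the GC box bound by SP1, on either strand.

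SOX4, chr6:21593501-21593750, plus strand: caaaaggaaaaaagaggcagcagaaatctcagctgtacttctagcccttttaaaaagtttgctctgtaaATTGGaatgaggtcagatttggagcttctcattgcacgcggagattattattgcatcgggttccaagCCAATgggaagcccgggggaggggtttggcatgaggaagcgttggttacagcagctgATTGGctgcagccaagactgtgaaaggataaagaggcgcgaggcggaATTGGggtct

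POU3F2, chr6:98834324-98834573, plus strand: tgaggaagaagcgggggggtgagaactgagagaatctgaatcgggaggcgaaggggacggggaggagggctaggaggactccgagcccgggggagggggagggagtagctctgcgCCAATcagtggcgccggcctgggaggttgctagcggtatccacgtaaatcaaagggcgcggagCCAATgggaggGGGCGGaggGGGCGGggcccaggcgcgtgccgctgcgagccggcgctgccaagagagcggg

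The window of SOX4 holds 4 CCAAT matches and no GC box, at a GC content of 48.8%, and that of POU3F2 holds 2 of each, at 69.2%. Of 35116 RefSeq windows of the same length, 32.0% hold at least 1 CCAAT, 9.53% at least 2 and 0.874% at least 4, and 42.6% hold a GC box. In all, 6 motifs were searched on both strands, the others being CAGAC, a half-site bound by SMAD proteins, TGACTCA, bound by AP-1, ACAAT, the core bound by SOX proteins, and TATAAA. None of these 4 is in the windows of SOX4 or POU3F2, and the marked matches do not overlap. The window of SOX5, on chromosome 12, holds 2 ACAAT and 1 GGGCGG. It runs from 24562492 to 24562741 on the minus strand. Part of it lies inside the span of SOX5 in RefSeq, which reaches 24562650. No window of SOX9 was searched. For PRDM1, also on chromosome 6, windows before 2 starts were searched. Its span in RefSeq begins upstream of both, at 105992690, and no window there was searched. The window of the first holds 1 CAGAC and 1 ACAAT, and that of the second holds 1 TGACTCA and 1 GGGCGG. The shares of all windows with a match are 38.0% for CAGAC, 4.20% for TGACTCA, 24.6% for ACAAT and 10.7% for TATAAA. A match describes letters in a window and says nothing of binding.

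SOX4 was high in 3 arrays and low in untreated vector cells. Its brightest probe set, 201417_at, read 27.6 with TGF-beta and 18.3 without it in the arrays labelled DLC1, against 25.2 with TGF-beta and 6.84 without it in the vector arrays. The order of the arrays in this set was therefore DLC1 with TGF-beta, vector with TGF-beta, DLC1 alone and vector alone. With TGF-beta the log2 difference was 0.59 in cells labelled DLC1, or 1.5-fold, and SOX4 rose 3.68-fold in vector cells, by 1.88. Without TGF-beta SOX4 was 2.68-fold higher in the cells labelled DLC1 than in vector cells, while with it the ratio was 1.10.

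The other probe sets of SOX4 were also lowest in untreated vector cells where they were bright. The order of the 2 arrays with TGF-beta was not shared. DLC1 minus vector with TGF-beta was 0.13 in the brightest set. It was -0.08 in 201416_at, -0.20 in 201418_s_at and -0.19 in 213668_s_at, all small. Set 201416_at read 11.04 and 8.29 in the arrays labelled DLC1 with and without TGF-beta, against 11.7 and 2.77 in the vector arrays. It rose 4.22-fold with TGF-beta in vector cells and was 2.99-fold higher in untreated cells labelled DLC1 than in untreated vector cells. The dimmer 213668_s_at read 1.6 and 1.20 against 1.82 and 0.56, and 201418_s_at read 2.28 and 1.93 against 2.62 and 1.17. In the last of these the difference between untreated cells labelled DLC1 and vector cells was 1.65-fold, short of 2-fold. The dimmest kept set, 213665_at, lay between 0.29 and 0.38 on every array. In 4 of the 5 kept sets of SOX4 the difference with TGF-beta in vector cells passed 2-fold, and in none of the 5 did that in cells labelled DLC1.

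SOX5 had 1 high array, that of vector cells with TGF-beta. Its brightest probe set, 238009_at, read 0.67 with TGF-beta and 0.32 without it in the arrays labelled DLC1, against 3.11 with TGF-beta and 0.61 without it in the vector arrays. It rose with TGF-beta 2.09-fold in cells labelled DLC1, by 1.07 on the log2 scale, and 5.10-fold in vector cells, by 2.35. With TGF-beta it was 4.64-fold lower in the cells labelled DLC1, and without TGF-beta 1.91-fold lower, just short of 2-fold. The second kept set, 207336_at, read 0.14 and 0.12 against 0.51 and 0.18. It passed the filter only through the vector array with TGF-beta, and its other 3 values were all under the filter, so it adds no support to the brightest set.

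SOX9 differed little. Its probe set 202936_s_at read 18.3 with TGF-beta and 15.3 without it in the arrays labelled DLC1, against 23.6 with TGF-beta and 20.9 without it in the vector arrays. Both values of the cells labelled DLC1 lay below both of the vector cells. The share of all kept genes with this order was not counted, so nothing is read from it. The log2 differences were -0.45 in untreated cells and -0.37 with TGF-beta, and none reached 2-fold. In the other set, 202935_s_at, the values were 13.6 and 11.3 against 14.9 and 12.5, the groups overlapped, and these differences were -0.15 and -0.13. The differences with TGF-beta were 0.26 in cells labelled DLC1 and 0.18 in vector cells in the first set, and 0.27 and 0.26 in the second. The antisense gene SOX9-AS1, in its probe set 230419_at, read 0.61 and 0.48 in the arrays labelled DLC1 with and without TGF-beta, against 0.44 and 0.42 in the vector arrays.

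POU3F2 was low in both arrays labelled DLC1. Its brightest probe set, 242455_at, read 0.66 with TGF-beta and 0.33 without it in these arrays, against 3.83 with TGF-beta and 1.39 without it in the vector arrays. The groups did not overlap: the lowest vector value was 2.11-fold above the highest value of the cells labelled DLC1. A gap of 2-fold or more in this direction was seen for 0.548% of 13134 kept genes, and the other 4 genes did not show it. POU3F2 was 4.21-fold lower in cells labelled DLC1 without TGF-beta and 5.80-fold lower with it, by 2.07 and 2.54 on the log2 scale, which made it the 16th and the 4th lowest of all kept genes. With TGF-beta the ratio in cells labelled DLC1 was 2.0, exactly on the threshold, and rounding of the deposited values to 2 decimals alone allows log2 differences of 0.97 to 1.03. In vector cells POU3F2 rose 2.76-fold with TGF-beta.

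The second probe set of POU3F2, 207084_at, was dimmer and differed less. It read 0.30 in both arrays labelled DLC1, against 0.58 with TGF-beta and 0.40 without it in the vector arrays. It passed the filter only through the vector arrays, as both values of the cells labelled DLC1 were under it. It therefore adds no support to the brightest set. With TGF-beta the difference between cells labelled DLC1 and vector cells was -0.95, short of 2-fold. In cells labelled DLC1 this set showed no difference with TGF-beta at the precision of the values.

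PRDM1 rose with TGF-beta by a like ratio in both kinds of cells and was lower in those labelled DLC1. Its brightest probe set, 228964_at, read 0.53 with TGF-beta and 0.22 without it in the arrays labelled DLC1, against 1.39 with TGF-beta and 0.55 without it in the vector arrays. The rise was 2.41-fold in cells labelled DLC1 and 2.53-fold in vector cells. It was 2.62-fold lower in cells labelled DLC1 with TGF-beta and 2.50-fold lower without it. All 4 values are dim, and the value of untreated cells labelled DLC1 lies at the 37.7th percentile of that array. The groups barely parted, as cells labelled DLC1 with TGF-beta read 0.53 and untreated vector cells 0.55.

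The other probe sets of PRDM1 did not reach 2-fold in any comparison. Set 217192_s_at read 0.50 and 0.39 in the arrays labelled DLC1 with and without TGF-beta, against 0.78 and 0.50 in the vector arrays, with the same directions at smaller size. Set 235668_at read 0.30 and 0.34 against 0.46 and 0.48. That set passed the filter only through the vector arrays. Its lower values in cells labelled DLC1, by 0.50 without TGF-beta and 0.62 with it, therefore add no support to the brightest set. Its differences with TGF-beta were -0.18 and -0.06, opposite to those of the brightest set.

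**Figure D1:**
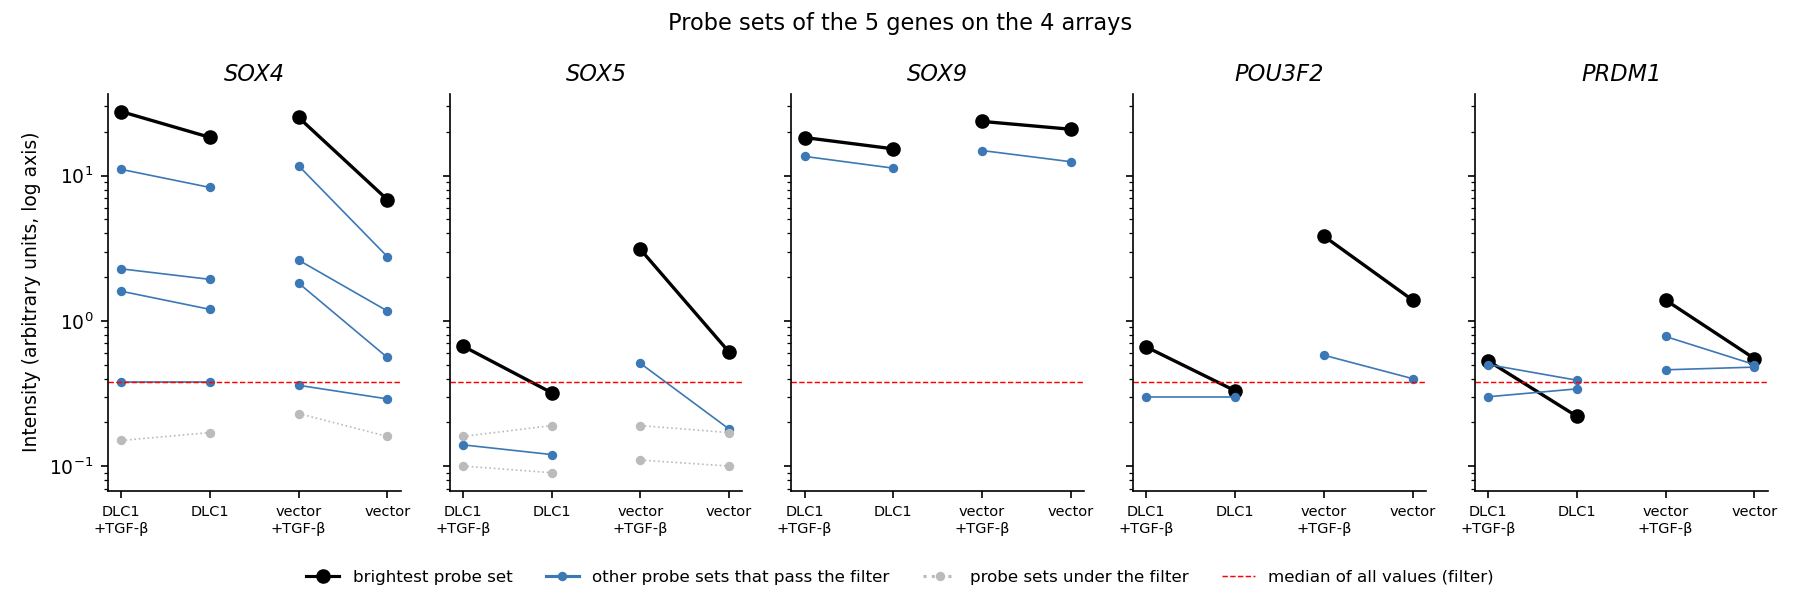
Intensity in arbitrary units (log axis) of every probe set of the 5 genes on each array, 1 array a group, with lines joining the arrays with and without TGF-beta of the same cells. SOX4 was lowest in untreated vector cells at 6.84, SOX5 and POU3F2 were highest in vector cells with TGF-beta at 3.11 and 3.83, and SOX9 varied between 15.3 and 23.6 in its brightest set.

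With TGF-beta 3 of the 5 genes rose in cells labelled DLC1, SOX5, POU3F2 and PRDM1, and 4 of the 5 in vector cells, these 3 and SOX4. In untreated cells labelled DLC1 the brightest sets of SOX5, POU3F2 and PRDM1 read 0.32, 0.33 and 0.22, all under the filter. Among all 13134 kept genes, 0.777% rose in cells labelled DLC1 and 1.2% in vector cells, and 0.107% and 0.685% fell. Since the genes were chosen from such differences, nothing is read from these shares. In both kinds of cells, whose differences with TGF-beta share no array, 0.609% of all kept genes rose, or 80 genes, with SOX5, POU3F2 and PRDM1 among them. PRDM1 ranked 54th and SOX4 298th from the top in cells labelled DLC1, whereas SOX5 ranked 18th and SOX4 36th in vector cells. With 0.1 added to every value before log2, which shrinks ratios of dim values, the differences in cells labelled DLC1 were 0.98 for PRDM1, 0.87 for SOX5 and 0.82 for POU3F2, all short of 2-fold.

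Without TGF-beta, POU3F2 and PRDM1 were lower in cells labelled DLC1 than in vector cells and SOX4 was higher, where 2.31% of all kept genes were lower and 1.61% higher. With TGF-beta, SOX5, POU3F2 and PRDM1 were lower and none of the 5 was higher, where 1.61% of kept genes were lower and 1.45% higher. These comparisons share arrays with those of TGF-beta, so the vector array with TGF-beta alone can place a gene both among those raised by TGF-beta and among those lower with DLC1. In the same way the untreated vector array, where SOX4 read 6.84, enters more than 1 result of SOX4. They are its rise in vector cells, its higher value in untreated cells labelled DLC1 and the difference of the responses given below.

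The difference with TGF-beta in cells labelled DLC1 minus that in vector cells was past 2-fold for SOX4 and SOX5, at -1.29 and -1.28, which made them the 5th and 6th lowest of all kept genes. Of these, 0.175% were at -1 or below and 0.19% at 1 or above. The second brightest set of SOX4 gave -1.67. That of SOX5 gave -1.28, or -1.0 and just short of 2-fold with 0.1 added before log2, and it was above the filter on 1 array only. For POU3F2 the value was -0.46, for PRDM1 -0.07 and for SOX9 0.08. On the linear scale POU3F2 gained 0.33 units with TGF-beta in cells labelled DLC1 and 2.44 in vector cells, and PRDM1 gained 0.31 and 0.84, so that a like ratio stands beside unlike gains.

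**Figure D2:**
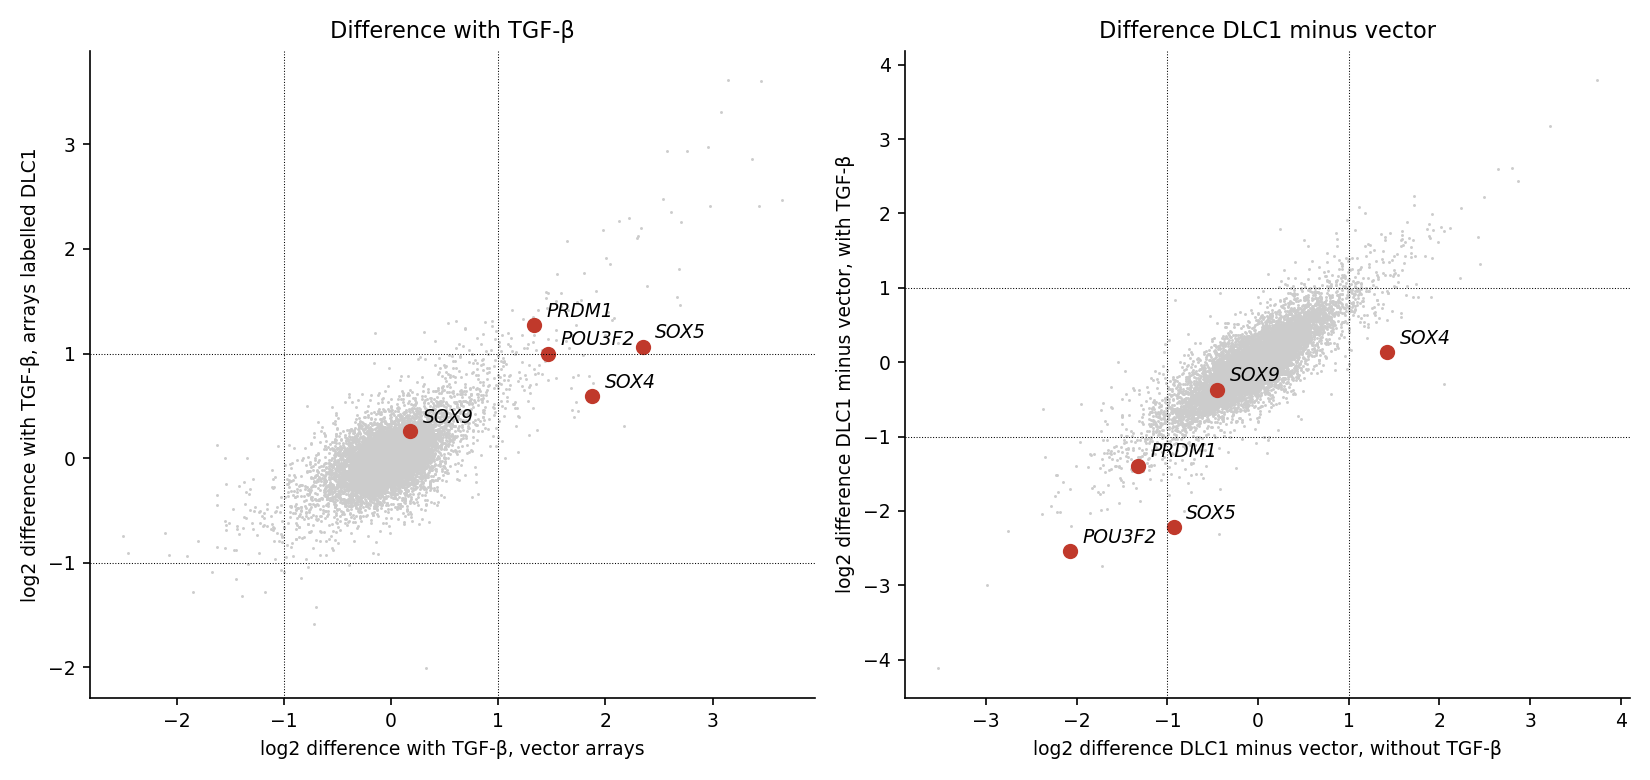
Log2 differences of the 13134 kept genes (grey) and of the 5 genes (red), with TGF-beta in vector arrays against arrays labelled DLC1 (left) and between DLC1 and vector without against with TGF-beta (right), 1 array a group, with dotted lines at 2-fold. SOX4 lies off the diagonal, at 1.88 and 0.59 on the left and 1.42 and 0.13 on the right. SOX5 does too, at 2.35 and 1.07 on the left and -0.93 and -2.21 on the right. The distance from the diagonal is the same in both panels by arithmetic, so the panels are not separate evidence. SOX9 lies within 0.5 of 0.

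**Figure D3:**
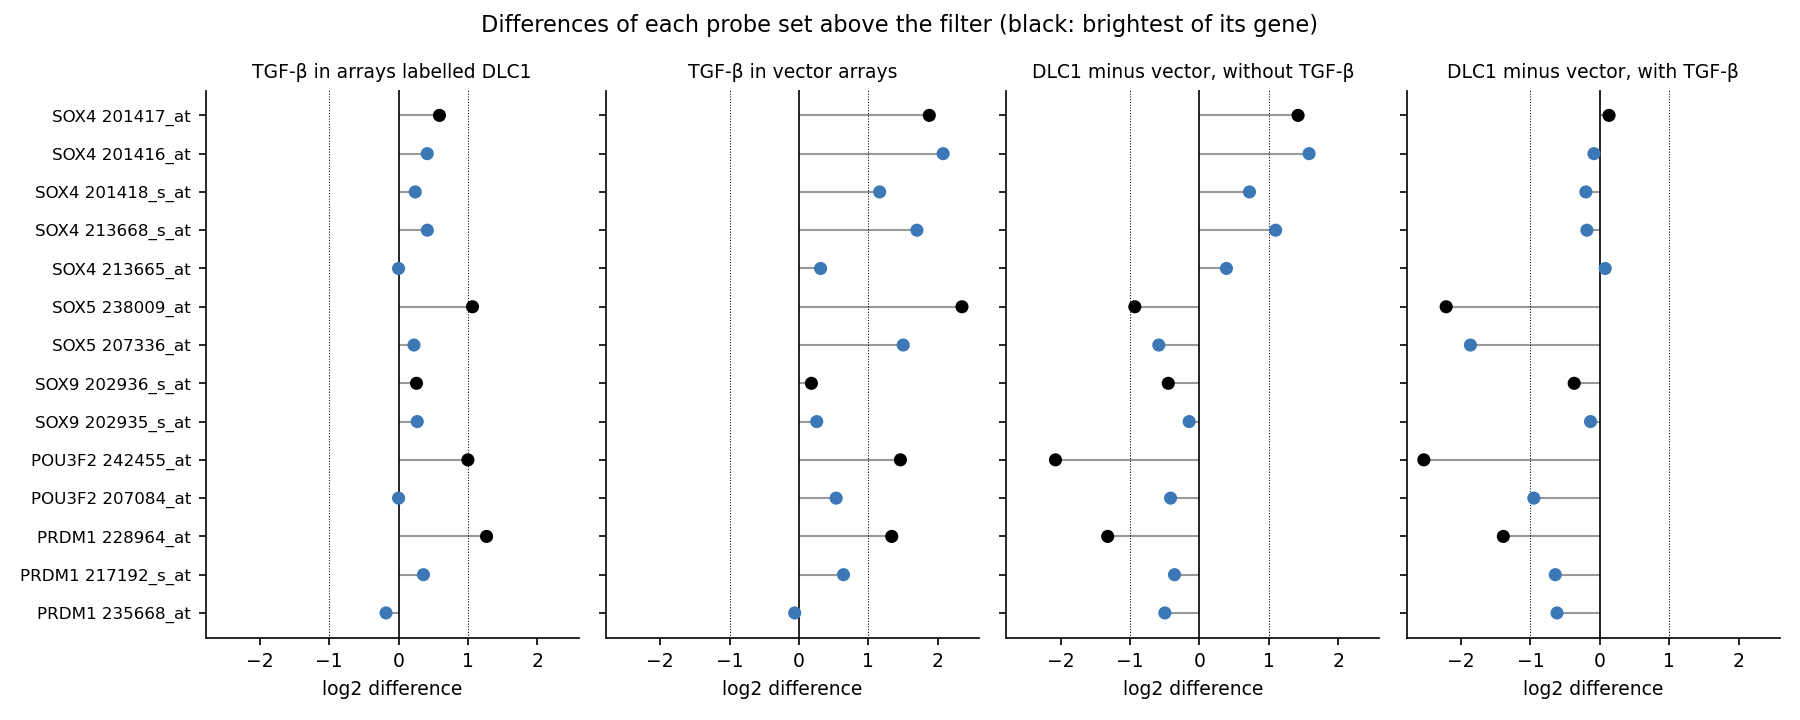
Log2 difference of each of the 14 kept probe sets in the 4 comparisons, 1 array a group, with dotted lines at 2-fold. With TGF-beta in vector cells 4 of the 5 sets of SOX4 and both of SOX5, the dimmer of them above the filter on 1 array only, passed 2-fold, whereas in POU3F2 and PRDM1 only the brightest set passed in any comparison.

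For each gene, the 3 kept genes with the most similar profile were found by the root mean square distance between log2 values over the 4 arrays, each gene centred on its mean. Nearest to SOX4 were BHLHE40, a transcriptional repressor of the circadian clock, at a distance of 0.18, ABCA1, a cholesterol exporter, at 0.20, and YPEL2 at 0.20. BHLHE40 read 19.8 with TGF-beta and 11.5 without it in the arrays labelled DLC1, against 21.0 and 5.85 in the vector arrays, so it too was lowest in untreated vector cells. Nearest to SOX5 were EDN1, which encodes endothelin, at 0.22, BPGM at 0.27 and APCDD1L at 0.28. EDN1 read 9.28 and 4.68 in the arrays labelled DLC1 with and without TGF-beta, against 32.0 and 9.23 in the vector arrays.

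POU3F2 was most like ESM1, which encodes the secreted proteoglycan endocan, at 0.24, the scaffold gene CNKSR2 at 0.28 and PIK3CG, a catalytic subunit of PI3 kinase, at 0.34. ESM1 read 0.60 and 0.28 in the arrays labelled DLC1 with and without TGF-beta, against 4.0 and 0.92 in the vector arrays. The profile of PRDM1 was nearest to DCLK1, a kinase of microtubules, at 0.07, the ubiquitin ligase gene MARCHF4 at 0.08 and MYO10, a motor of filopodia, at 0.12. MYO10 read 21.9 and 8.07 in the arrays labelled DLC1 with and without TGF-beta, against 49.7 and 18.2 in the vector arrays. SOX9 was nearest to PLS3, PARP12 and SUFU, at 0.01 to 0.02. Among the 5 genes themselves SOX5 and PRDM1 were closest at 0.38, and SOX4 and POU3F2 farthest apart at 1.56.

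The other measured members of the 3 families were mostly under the filter or within 2-fold. Of 16 other SOX genes 6 were kept, namely SOX2, SOX6, SOX10, SOX12, SOX13 and SOX15, and none passed 2-fold in any of the 4 differences. Their medians were -0.03 and 0.01 with TGF-beta in cells labelled DLC1 and vector cells, beside -0.01 and -0.03 for all kept genes, and -0.06 and -0.12 between DLC1 and vector without and with TGF-beta, beside -0.03 and -0.02. SOX6, which works with SOX5 in cartilage and is named here after its values were seen, read 1.79 and 1.95 in the arrays labelled DLC1 with and without TGF-beta, against 1.12 and 1.24 in the vector arrays, within 2-fold. Of 10 other POU genes measured, POU2F2 and POU6F1 were kept and neither passed 2-fold, with medians of -0.21 and -0.13 with TGF-beta, and -0.08 and -0.16 between DLC1 and vector. The other members of the POU3 class, POU3F1, POU3F3 and POU3F4, were under the filter.

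Of 14 other PRDM genes measured 9 were kept and 1 passed 2-fold. MECOM, a zinc-finger factor of blood stem cells, read 8.42 in untreated cells labelled DLC1 against 17.7 in untreated vector cells and fell by 1.08 on the log2 scale, while its second set, 221884_at, gave -0.88. With TGF-beta it read 10.5 against 15.7. The medians of the 9 were -0.01 and -0.11 with TGF-beta in cells labelled DLC1 and vector cells, and 0.11 without and 0.11 with it between DLC1 and vector.

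Genes known as targets or partners of the 5 factors were also examined. Of 13 cartilage genes under SOX9, SOX5 and SOX6, 5 were kept, COL2A1 was not, and none passed 2-fold, with medians of 0.19 and -0.05 with TGF-beta and 0.19 and 0.25 between DLC1 and vector. All 10 genes tied to SOX4 or SOX9 in the TGF-beta response and in epithelial-mesenchymal transition were kept, and in their brightest probe sets none rose. In dimmer sets, named after their values were seen, SEMA3C in 203788_s_at read 0.91 with TGF-beta and 0.38 without it in vector cells, a log2 difference of 1.26, and 0.39 and 0.40 in cells labelled DLC1. NRP1 in 1561365_at read 0.49 in cells labelled DLC1 with TGF-beta, against 0.16 in vector cells with it, a difference of 1.61. Only the first of these arrays was above the filter in that set. The brighter sets of NRP1 gave 0.35 and 0.50 in the same comparison. SNAI2, a repressor of epithelial genes, read 15.6 and 9.57 in the arrays labelled DLC1 with and without TGF-beta, against 31.7 and 21.9 in the vector arrays, and fell by 1.02 and 1.19. LGR5, a receptor of intestinal stem cells, read 0.13 and 0.20 against 0.14 and 0.40, near or under the filter. Its log2 difference with TGF-beta in vector cells was -1.51, and that between untreated cells labelled DLC1 and vector cells was -1.0. The list's medians were 0.04 and 0.01 with TGF-beta, and -0.39 and -0.16 between DLC1 and vector. EZH2, the histone methyltransferase known as a SOX4 target, was chosen after its values were seen. It read 5.91 and 6.97 in the arrays labelled DLC1 with and without TGF-beta, against 9.81 and 13.3 in the vector arrays, within 2-fold.

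Of 15 partners and targets of PRDM1, 11 were kept. MYC, a gene PRDM1 represses in B cells that is named after its values were seen, read 28.2 and 32.4 in the arrays labelled DLC1 with and without TGF-beta, against 27.6 and 30.8 in the vector arrays. XBP1, a factor of the unfolded protein response and of plasma cells, read 9.22 and 8.92 against 5.42 and 4.31, and rose by 1.05 in untreated cells labelled DLC1. In the brightest sets it was the only one past 2-fold, and the medians were 0.05 and 0.19 with TGF-beta, and -0.14 and -0.25 between DLC1 and vector. A dimmer set of CIITA, 205101_at, is named after its values were seen. It read 0.14 with TGF-beta and 0.44 without it in vector cells, a log2 difference of -1.65. In cells labelled DLC1 it read 0.16 and 0.23, so only the untreated vector array was above the filter. Of 9 partners and targets of POU3F2 measured, 6 were kept. PDE5A, a phosphodiesterase of cyclic GMP, is known as a gene repressed by POU3F2 in melanoma. It read 1.93 and 1.25 in the arrays labelled DLC1 with and without TGF-beta, against 0.41 and 0.38 in the vector arrays. It was higher in cells labelled DLC1 by 2.23 with TGF-beta and 1.72 without it. With TGF-beta PDE5A differed by 0.63 in cells labelled DLC1 and 0.11 in vector cells. The brightest set of POU3F2 rose by 1.46 in vector cells. In cells labelled DLC1 it rose by 1.0, exactly on the threshold and from a value under the filter, and its second set did not differ. A link between PDE5A and POU3F2 was not tested. KITLG, the ligand of KIT, read 2.12 with TGF-beta and 4.81 without it in vector cells and fell by 1.18, while in cells labelled DLC1 it read 2.46 and 3.54. The medians of the 6 were 0.01 and -0.20 with TGF-beta and -0.13 and 0.21 between DLC1 and vector. MITF, the melanocyte factor that POU3F2 can repress, was chosen after its values were seen and read 5.59 and 9.44 in the arrays labelled DLC1 with and without TGF-beta, against 3.99 and 7.0.

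**Figure D4:**
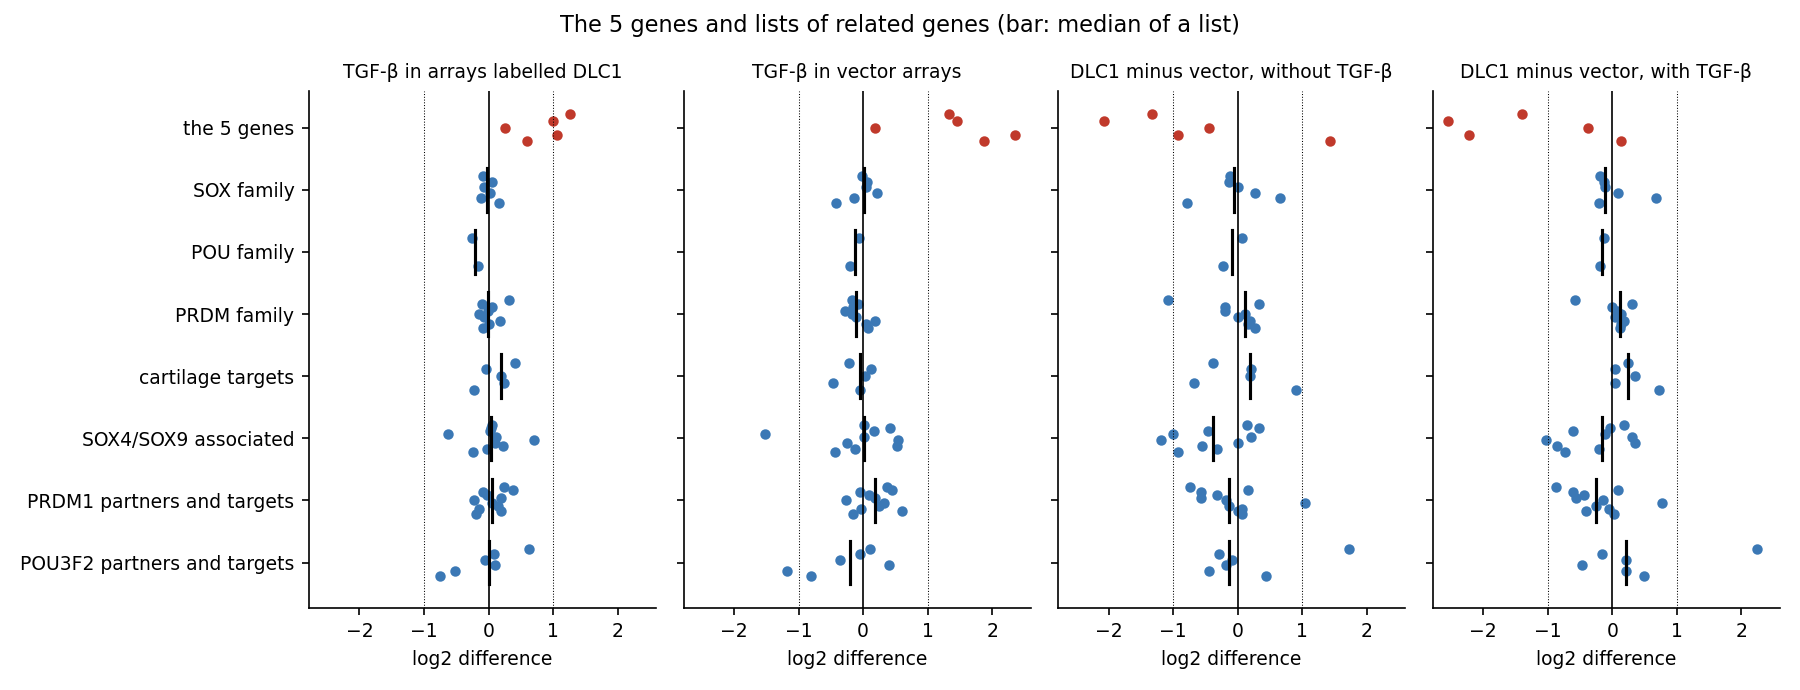
Log2 differences of the 5 genes (red) and of the kept genes in 7 lists of related genes (blue) in the 4 comparisons, 1 array a group, with bars at the medians of the lists and dotted lines at 2-fold. Among the SOX, POU and PRDM relatives only MECOM passed 2-fold, at -1.08, and PDE5A lies farthest right among the lists, at 2.23 with TGF-beta.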

How the data were processed

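Messenger RNA of 4 groups of SCP2 cells was measured on 1 array each, and arrays were grouped by their labels alone. Cells were lifted with trypsin and total RNA from Trizol was copied with oligo-dT primers, per the labels' protocols. The deposited values are intensities on a linear scale, rounded to 2 decimals. Per the submitters' processing notes RMA was used, with no version named, and the divisor of the scale is not given in the sources used here. RMA gives arrays like distributions, which hides a shift common to most genes, and the rounding makes ratios of dim values coarse. Log2 was taken, and differences were computed per probe set (pandas 2.3.3 and numpy 2.4.6 under Python 3.11.15). GEO's platform annotation named the probe sets: 41097 had 1 gene symbol and 1801 several. A gene was its probe set with the highest mean log2 value that carried 1 symbol only. Of 19775 such genes 13134 were kept. The members, the gene lists and the rules were chosen with earlier results of these data known. The text names all probe sets of the 5 genes and of DLC1, the 3 nearest profiles of each, and up to 6 genes per list past 2-fold, and says where it goes beyond. The fold rule was tried on simulated data with a chosen noise, no rounding and planted effects well past 2-fold. That trial does not cover rounded dim values or differences near 2-fold. Alternatives were an offset of 0.1, other filters, other summaries of probe sets, 4 scalings (medians, housekeeping genes, quantiles, and cyclic loess by limma 3.58.1 under R 4.3.3) and a 1.5-fold threshold. The number of arrays limits the precision, and no p-value is given.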

Additional observations from a re-analysis of the deposited data

How the results depend on the processing

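The 10 alternatives were set against the number of the 5 genes past 2-fold in each comparison. With 0.1 added before log2, 0 genes in place of 3 passed with TGF-beta in cells labelled DLC1, where POU3F2 gave 0.82, SOX5 0.87 and PRDM1 0.98. Quantile normalization left 2 genes in that comparison, as POU3F2 gave 0.9999. With a gene as the mean of its probe sets, the count there was 0, and with TGF-beta in vector cells it was 2 in place of 4. With the second brightest probe set it was 0 with TGF-beta in cells labelled DLC1, 2 with TGF-beta in vector cells, and 1 between DLC1 and vector both without and with TGF-beta, in place of 3 each. The changes of POU3F2 and PRDM1 therefore rest on 1 probe set each, while those of SOX4 with TGF-beta in vector cells and in the difference of the responses were also past 2-fold in its second set. The second set of SOX5 was above the filter on 1 array only, and its difference of the responses was -1.0, just short of 2-fold, with the offset. The other counts stayed within 1.5 times under all 10 alternatives, and of the 70 differences of kept probe sets none past 2-fold changed sign under the 5 alternatives that alter the values. Some near 0 did, such as that of SOX4 201416_at between DLC1 and vector with TGF-beta, -0.08 as deposited and 0.01 centred on housekeeping genes. No paired analysis was possible because each group has 1 array. Dim values limit the sizes of the differences of POU3F2, SOX5 and PRDM1.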

Other observations

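The genes beside the 5 on their chromosomes were also examined. Of the 3 nearest kept genes on each side of each gene, 30 in all, 0 passed 2-fold between cells labelled DLC1 and vector cells without TGF-beta, where they ran from -0.99 to 0.44 on the log2 scale, and 0 with it, where they ran from -0.74 to 0.47. With TGF-beta 0 passed in cells labelled DLC1 and 1 in vector cells, CRYBG1, the second gene past PRDM1, at -1.02. These genes and those below were looked at after the values of the 5 genes were seen.

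POU3F2 and PRDM1 lie on the same arm of chromosome 6 with 12 kept genes between them, among them FBXL4, CCNC, ASCC3, HACE1 and PREP. Between cells labelled DLC1 and vector cells these 12 ran from -0.57 to 0.58 without TGF-beta, with a median of -0.11, and from -0.38 to 0.41 with it, with a median of -0.12. The medians of all 686 kept genes of chromosome 6 were -0.05 and -0.01.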
